A study of Mus musculus with 48 samples.

Results

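The genes described here encode the subunits of the proteasome. They are all genes of the deposited liver count table whose symbol is Psma, Psmb, Psmc or Psmd followed by a number and whose mean over the 48 libraries was at least 10 counts. Of the 23732 genes in the table, 38 matched the symbol and 37 also met the mean count. The one left out, Psmb11, a subunit of the thymus, had 1 count in 1 library. No difference between groups entered this rule, but the proteasome was chosen as a subject with earlier results of these data known. The 37 genes fall into 17 of the core particle (Psma and Psmb) and 20 of the regulatory particle (Psmc and Psmd), and all 37 passed the filter on low counts used for the tests. The immunoproteasome subunit Psmb9 was not analysed here.

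Liver RNA came from 48 male C57BL/6 mice aged 4 to 6 months, in 12 groups of 4 given by genotype and time of death (ZT0, ZT4, ZT8, ZT12, ZT16 and ZT20, as zeitgeber hours). The columns of the count table give the same hours as CT, circadian time, for these mice in constant darkness, and the labels' ZT is used here. KO mice had floxed Bmal1 alleles and a ubiquitously expressed EsrCre, a Cre recombinase that tamoxifen switches on, and WT mice were Cre-negative littermates with the same floxed alleles. Mice of both genotypes were gavaged with tamoxifen (5 mg daily over 5 days), rested for 7 days, and were then kept for 36 h in constant darkness before they were killed at steps of 4 h that spanned 20 h. An action of Cre itself and the loss of Bmal1 cannot be told apart, because no WT mouse carried Cre. The mice of ZT4 and ZT8, of ZT12 and ZT16, and of ZT20 and ZT0 came from separate sets of cages, so cage set and time of day cannot be told apart either, while each set held both genotypes. In bulk liver, fewer cells of a type and less RNA per cell cannot be told apart.

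The proteasome is the protease that degrades proteins tagged with ubiquitin. Its core particle is a barrel of stacked rings, with alpha subunits (Psma genes) at the ends that gate the entrance and beta subunits (Psmb genes) in the middle, of which Psmb5, Psmb6 and Psmb7 encode the chymotrypsin-like, caspase-like and trypsin-like active sites. In cells exposed to interferon, Psmb8 and Psmb10 products take the places of those of Psmb5 and Psmb7 in the immunoproteasome. The regulatory particle caps the barrel: a ring of ATPases (Psmc genes) unfolds the substrate, and non-ATPase subunits (Psmd genes) bind ubiquitin chains, remove them and form the lid. Psmd5, Psmd9 and Psmd10 carry Psmd symbols but encode chaperones that help to assemble the ATPase ring and are not part of the finished particle. BMAL1 is the transcription factor at the centre of the circadian clock and binds E-boxes in promoters, and the factor NRF1, encoded by Nfe2l1, drives proteasome genes through antioxidant response elements.

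Promoters of 30 of the 37 genes were found in a RefSeq table (GRCm38.p6, 27025 genes, windows of 250 bases before to 50 after the start). Psma8, Psmb1, Psmb2, Psmb7, Psmc3, Psmd3 and Psmd7 had no entry. The E-box CACGTG, searched on both strands, stood in 3 of the 30 promoters (10%, against 8.09% of all 27025), those of Psma4, Psmb10 and Psmd9. The core of the antioxidant response element, TGACNNNGC, stood in 5 of 30 (16.7%, against 14% of all), those of Psmb5, Psmb6, Psmc6, Psmd12 and Psmd9. CCAAT, the NFY box, stood in 11 of 30 (36.7%, against 41.1%), and neither the long form TGACTCAGC (0.503% of all promoters) nor the D-box TTATGTAA (1.11% of all) was in any of the 30 windows. The shares of the first 3 motifs were near those of all promoters. The 250 bases before the start are shown for the 3 genes with an E-box, of which Psmd9 and Psmb10 had called 24 h waves in WT mice and Psma4 did not, and for Psmd11, which had a called wave and none of the 5 motifs in its window; capitals mark CACGTG and, in Psmd9, also TGACNNNGC, each as it reads on the gene's own strand. In Psmd9 (plus strand, chr5:123227940-123228189) the E-box began 51 and the antioxidant element 31 bases before the start. In Psmb10 (minus strand, chr8:105938393-105938642) the E-box began 116 bases before it, and in Psma4 (plus strand, chr9:54950609-54950858) 140 bases before it. The Psmd11 window was on the plus strand at chr11:80428365-80428614. These are matches of letters, and binding was not measured.
Psmd9: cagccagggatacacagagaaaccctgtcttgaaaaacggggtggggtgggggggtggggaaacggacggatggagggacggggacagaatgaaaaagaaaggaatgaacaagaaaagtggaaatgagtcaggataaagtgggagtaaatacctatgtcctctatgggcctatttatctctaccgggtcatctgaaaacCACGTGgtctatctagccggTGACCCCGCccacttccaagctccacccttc
Psmb10: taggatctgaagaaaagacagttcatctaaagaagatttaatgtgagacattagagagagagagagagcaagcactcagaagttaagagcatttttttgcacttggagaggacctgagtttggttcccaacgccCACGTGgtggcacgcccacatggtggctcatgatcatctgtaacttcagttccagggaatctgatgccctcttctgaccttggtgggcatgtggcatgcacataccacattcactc
Psma4: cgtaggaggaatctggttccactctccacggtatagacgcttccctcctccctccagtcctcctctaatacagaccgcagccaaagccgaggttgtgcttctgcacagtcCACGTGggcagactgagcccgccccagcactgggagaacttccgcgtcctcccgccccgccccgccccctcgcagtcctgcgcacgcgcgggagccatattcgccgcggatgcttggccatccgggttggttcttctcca
Psmd11: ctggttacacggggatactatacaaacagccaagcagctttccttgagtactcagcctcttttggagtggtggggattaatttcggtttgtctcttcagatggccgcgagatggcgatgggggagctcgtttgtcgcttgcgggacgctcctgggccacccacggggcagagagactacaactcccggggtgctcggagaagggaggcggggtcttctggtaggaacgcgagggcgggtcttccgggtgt

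The libraries held 33562272 to 34035644 counts each (median 33855278), so depth hardly differed between groups. Every p-value below sets a difference or wave against the spread between mice, which were treated as independent except in the fit with cage as a block. The whole-gene count of the targeted gene Arntl (Bmal1) lay between 0.979 and 47.8 CPM (reads of a gene relative to the scaled library total) in WT mice and between 4.6 and 25.6 CPM in KO mice. It ran from 39 to 47.8 CPM in WT and 6.82 to 17.6 CPM in KO mice of ZT20, and from 0.979 to 1.78 CPM in WT and 5.07 to 19.7 CPM in KO mice of ZT8, and its genotype difference changed with time (interaction, edgeR adjusted p = 6.28e-06). Its mean log2 difference, KO minus WT, was -0.05 ± 0.2 (SE, edgeR adjusted p = 0.916), and a count over the whole gene does not check the deletion of a part of it. Libraries from KO mice 20 and 21 (ZT12), with KO mice 43 and 44 (ZT0), lay farthest from their groups in an earlier look at these data. KO mouse 21 also had the highest mean over the core genes (without Psma8), 0.58 log2 units above the mean of all mice. Over the regulatory genes it stood 0.26 above that of all mice. KO mouse 20 stood at 0.20 and 0.31. WT mouse 48 (ZT0) had the lowest means, -0.37 for both particles. The counts and medians over the proteasome genes at ZT12 are therefore given with and without KO mice 20 and 21. Other values at ZT12, those of the listed genes among them, come from all mice unless stated. KO mouse 21 had the highest summed level of 9 leukocyte markers (1052 CPM, against 363 to 1052 CPM over all KO mice and 328 to 764 CPM over WT mice), of 5 Kupffer cell markers and of the 3 hepatocyte markers in the table, Apoa1, Ttr and Serpina1a; no marker of these 3 lists was at 0 in all mice. The hepatocyte list holds 5 markers, and the 3 in the table had a median difference, KO minus WT, of -0.22 at ZT4 and 0.33 at ZT12, the signs of the proteasome medians at these times. EdgeR called 0 of the 3 at ZT12 (2 at unadjusted p under 0.05, 0 by DESeq2), Apoa1 as higher in KO on average (not without KO mice 20 and 21), and Serpina1a for the interaction of genotype and time, and their part in the proteasome differences was not tested. Of the lists of 3 markers each for other cells, edgeR called 1 endothelial marker at ZT12, and 0 stellate and 0 cholangiocyte markers (2 and 0 at unadjusted p under 0.05, 0 and 0 by DESeq2).

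All 37 genes were expressed in liver, the core genes at higher levels per length than the regulatory ones. Psma1, an alpha subunit, had a mean of 105 CPM ± 11.8 in WT and 105 ± 10.1 in KO mice (SD, n = 24 each). For Psmd1, a scaffold of the regulatory base, the means were 133 (WT) and 131 CPM (KO). The highest CPM belonged to Psmd2, the other scaffold of the base (219.6 CPM in WT, 216 in KO), followed by Psmb7 (154 and 153 CPM) and the alpha subunit Psma4 (140.1 and 144 CPM). The lowest belonged to Psma8, an alpha subunit best known from testis (1.47 and 1.40 CPM), and to the chaperones Psmd10 (13.1 and 14 CPM) and Psmd9 (33.1 and 31.0 CPM). CPM grows with transcript length, so levels of different genes were compared as CPM per kilobase of median protein-coding transcript length.

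On that scale the 17 core genes had a median of 90.1 CPM per kb (1.06 to 132) and the 20 regulatory genes a median of 55.1 (9.55 to 82.9). Leaving out Psma8 and the immunoproteasome genes on one side and the assembly chaperones on the other gave medians of 95.9 over 14 core genes (28.8 to 132) and 58.6 over 17 regulatory genes (30.9 to 82.9). Core and regulatory levels overlapped: Psma2, an alpha subunit, stood at 28.8 CPM per kb, under every regulatory subunit except the chaperones. The order began with the active-site genes Psmb7 (132 CPM per kb) and Psmb6 (130.3), then Psma6 (125), Psma4 (122), Psmb4 (118), Psmb5 (112), Psma1 (97.3), Psmb3 (94.5) and Psma7 (90.1). The first regulatory genes in it were Psmd8, a lid subunit (82.9), and Psmc1, an ATPase (79.9). The 6 ATPases had a median of 64.4 CPM per kb (45.9 to 79.9), and the non-ATPase subunits without the chaperones 54.5. The immunoproteasome genes were below the genes they replace, with 41 CPM per kb for Psmb10 and 29.4 for Psmb8. The bottom of the order was held by the chaperones Psmd9 (12.3), Psmd10 (9.64) and Psmd5 (9.55) and by Psma8 (1.06). The median was 89.1 in WT and 91.1 in KO for the core and 54.7 and 55.5 for the regulatory genes. In 30 of the 36 pairs of neighbours in the order the gap was smaller than the larger SD of the pair over all mice. The 6 wider gaps were those from Psmb5 to Psma1, Psmd3 to Psmc6, Psmb10 to Psmd14, Psma2 to Psmd9, Psmd9 to Psmd10 and Psmd5 to Psma8. Which transcripts the liver uses was not measured.

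**Figure D1:**
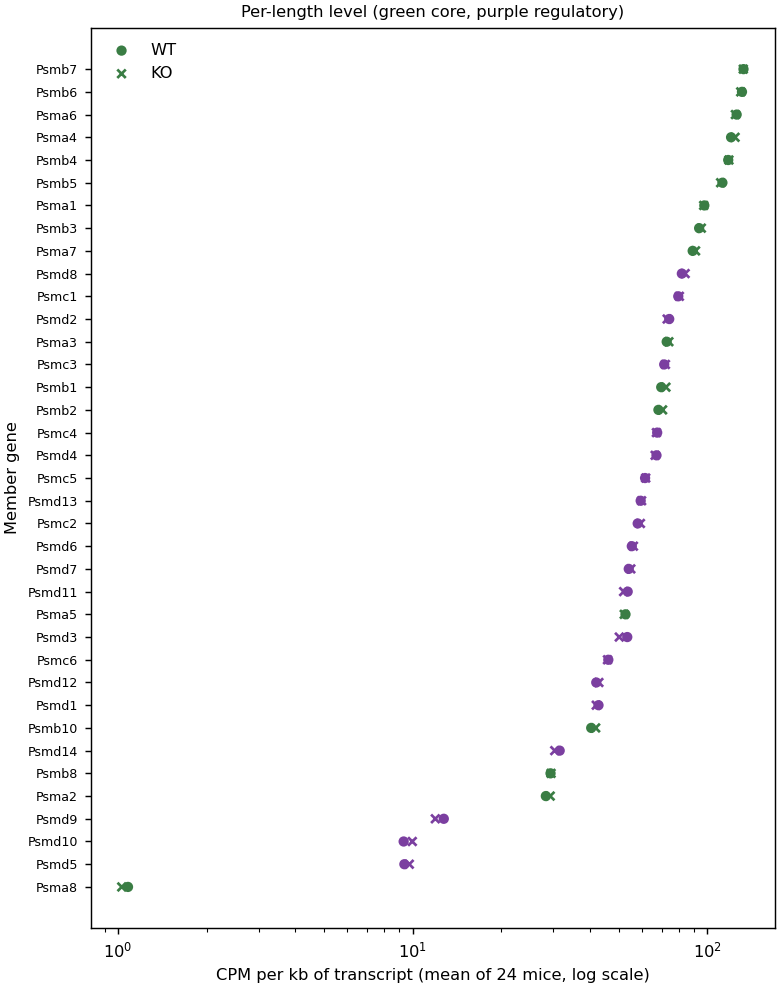
Mean level of each proteasome gene in CPM per kilobase of transcript, in WT and KO mice. Core genes run from 1.06 (Psma8) to 132 (Psmb7) and regulatory genes from 9.55 (Psmd5) to 82.9 (Psmd8), and the WT and KO points of a gene lie close together.

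In WT liver 21 of the 37 genes differed among the 6 times (edgeR test on 5 degrees of freedom, adjusted p under 0.05; 47.9% of all genes tested were called), 11 of the core and 10 of the regulatory particle. A 24 h wave was called in 11 genes, or 29.7% of them, against 48.1% of all genes tested: 7 core genes and 4 regulatory ones. The waves were shallow. Their median log2 amplitude, from the mean to the peak, was 0.121 over the core and 0.0909 over the regulatory genes, below the median of 0.182 over all 14836 genes tested. The 7 core genes with called waves peaked at ZT 4.51 to ZT 9.44, and the 4 regulatory ones at 4 scattered hours. With libraries scaled by total counts 18 of the 37 genes had a called 24 h wave.

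**Figure D2:**
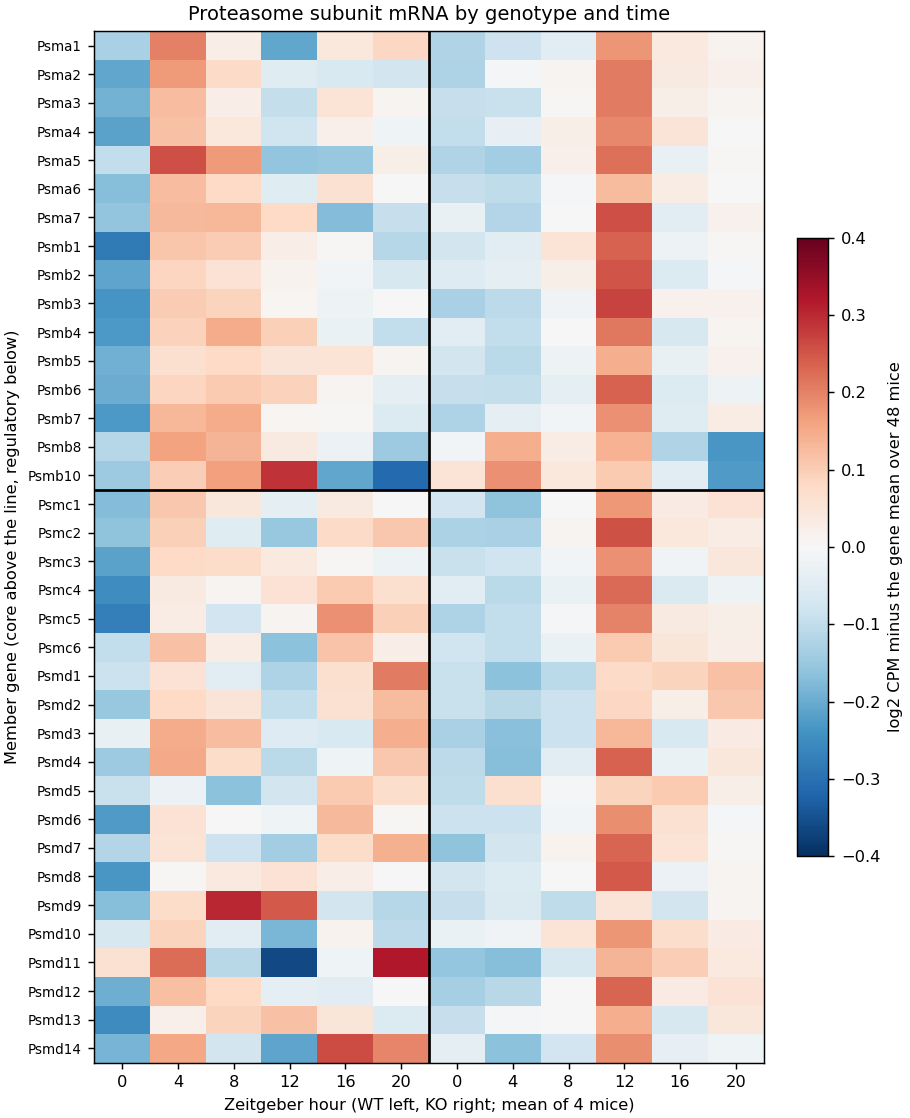
Mean log2 CPM of each proteasome gene at the 6 times in WT and KO mice, as the deviation from the gene's mean over all mice (Psma8, at 1.47 CPM, is not drawn). In WT mice many genes are low at ZT0 and core genes are high at ZT4 and ZT8, and in KO mice ZT12 stands out as the highest time.

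Among the core genes, Psmb10, the inducible trypsin-like subunit (ENSMUSG00000031897, mm9 chr8:108459628-108462292), had the widest called wave. It held 70.8, 69.8, 63.1 and 55.3 CPM in the 4 WT mice of ZT12 and 41.7, 44.1, 36.7 and 48 CPM in those of ZT20. The 2 sets did not overlap, and the fitted log2 amplitude was 0.29 ± 0.073 (SE) with a peak at ZT 8.47 (adjusted p = 0.00478). Psma5, an alpha subunit (ENSMUSG00000068749, mm9 chr3:108059844-108082892), held 72.7, 82.7, 73.3 and 80.3 CPM in WT mice of ZT4. At ZT12 it held 59.5, 61.1, 59 and 51.9 CPM. Every WT mouse of ZT4 was above every one of ZT12, and the amplitude was 0.17 ± 0.0417 with a peak at ZT 4.51 (adjusted p = 0.00228). The other core genes with called waves, none of them an inducible subunit, were Psma7 (amplitude 0.17, peak ZT 7.58), Psmb4 (0.16, ZT 9.41), Psmb1 (0.15, ZT 9.44), Psmb7 (0.13, ZT 8.86) and Psma2 (0.12, ZT 7.19). The active-site genes Psmb5 and Psmb6 had amplitudes of 0.09 and 0.12 and were not called (adjusted p = 0.219 and 0.0663), and neither was Psmb8 (0.15, adjusted p = 0.139).

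Among the regulatory genes, Psmd9 and Psmd11 had the widest called waves, with peaks far apart. Psmd9, a chaperone of the ATPase ring (ENSMUSG00000029440, mm9 chr5:123678199-123700140), held 28, 27.1, 29.3 and 28.5 CPM in WT mice of ZT0. At ZT8 it held 37.2, 37.2, 35.7 and 47.5 CPM, and at ZT12 37.6, 33.4, 42.3 and 37.9 CPM. All 8 mice of ZT8 and ZT12 were above all 4 of ZT0, and the wave had an amplitude of 0.25 ± 0.0402 and a peak at ZT 9.23 (adjusted p = 1.07e-05). Psmd11, a lid subunit (ENSMUSG00000017428, mm9 chr11:80242117-80286750), held 160, 146, 138 and 141 CPM in WT mice of ZT20 and 132, 143, 139 and 132 CPM in those of ZT4. At ZT12 its 4 values, 90, 90.9, 93.1 and 89.6 CPM, were below those of every other WT mouse at any time. Its amplitude was 0.27 ± 0.0459 with a peak at ZT 23.2 (adjusted p = 5.57e-05). The lid subunit Psmd13 (amplitude 0.15, peak ZT 11.2, adjusted p = 0.00125) and the chaperone Psmd5 (0.11, ZT 18.6, adjusted p = 0.0228) completed the 4.

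More genes passed the test of any time effect than that of a 24 h wave, and the means of several WT genes had 2 highs, at ZT4 and at ZT16 to ZT20. A 12 h wave added to the 24 h wave was called in 7 of the 37 genes in WT (18.9%, against 5.48% of all genes tested), 5 of them regulatory; this test was added after the data had been seen. Psmd14 (ENSMUSG00000026914, mm9 chr2:61549751-61638433), the deubiquitinase of the lid, had the widest 12 h wave, with an amplitude of 0.23 ± 0.0414 (SE, adjusted p = 0.00258). It held 56.6, 57.7, 47.6 and 49.2 CPM in WT mice of ZT4 and 60.6, 52.5, 61.5 and 52.4 CPM in those of ZT16. Between these times its values were 43.4, 45.4, 46.3 and 44.4 CPM at ZT8 and 36.3, 41.2, 47.2 and 39 CPM at ZT12. All mice of ZT8 and ZT12 were below all of ZT4 and ZT16. The others were Psma1 (amplitude 0.17, adjusted p = 0.00554), the ATPases Psmc6 (0.14, 0.00968) and Psmc2 (0.14, 0.0427), Psmd11 (0.17, 0.0279), the lid subunit Psmd6 (0.12, 0.0398) and Psma5 (0.14, 0.04). The calls of Psmc2, Psmd6 and Psma5 ended under 31, 24 and 20 of 57 other settings. The 7 fitted peaks lay at 5.15 to 6.34 h, and again 12 h later. Sampling at 6 times over 1 cycle catches a 12 h wave at only 3 distinct phases, and a second cycle was not analysed here.

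The core and regulatory particles differed in how their WT peak hours were arranged. Counting all genes, called or not, 14 of the 17 core genes had their fitted WT peak between ZT6 and ZT12, 2 between ZT0 and ZT6 and 1 between ZT12 and ZT18. Their circular mean was ZT 8.66 (ZT 6.49 with total-count scaling), with a concentration of 0.822 on a scale where 1 means that all peaks coincide and 0 that they are spread evenly. Of the 20 regulatory genes, 6 peaked between ZT6 and ZT12, 3 between ZT12 and ZT18, 7 between ZT18 and ZT24 and 4 between ZT0 and ZT6, with a concentration of 0.0831 and so no mean hour. That concentration was 0.264 with total-count scaling, and it ran from 0.0086 (without WT mouse 27) to 0.233 (without WT mouse 23) with 1 mouse left out. The difference within a mouse was taken as the mean over core genes, without Psma8, minus the mean over regulatory genes. It was positive in all 4 WT mice of ZT8 (group mean 0.09 log2 units, 0.07 to 0.11). It was negative in all 4 of ZT16 (mean -0.08, -0.11 to -0.06) and in all 4 of ZT20 (mean -0.12, -0.15 to -0.06). In KO mice it was negative in all 4 of ZT16 as well (mean -0.04, -0.07 to -0.01) and in all 4 of ZT20 (mean -0.05, -0.11 to -0.02), and positive in all 4 of ZT4 (mean 0.05, 0.01 to 0.11). These are descriptions without a test, since the genes of a complex measured in the same mice are not replicates, and peak hours of genes without a called wave are imprecise (for Psmd2, ZT 19.1 ± 9.33 SE).

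**Figure D3:**
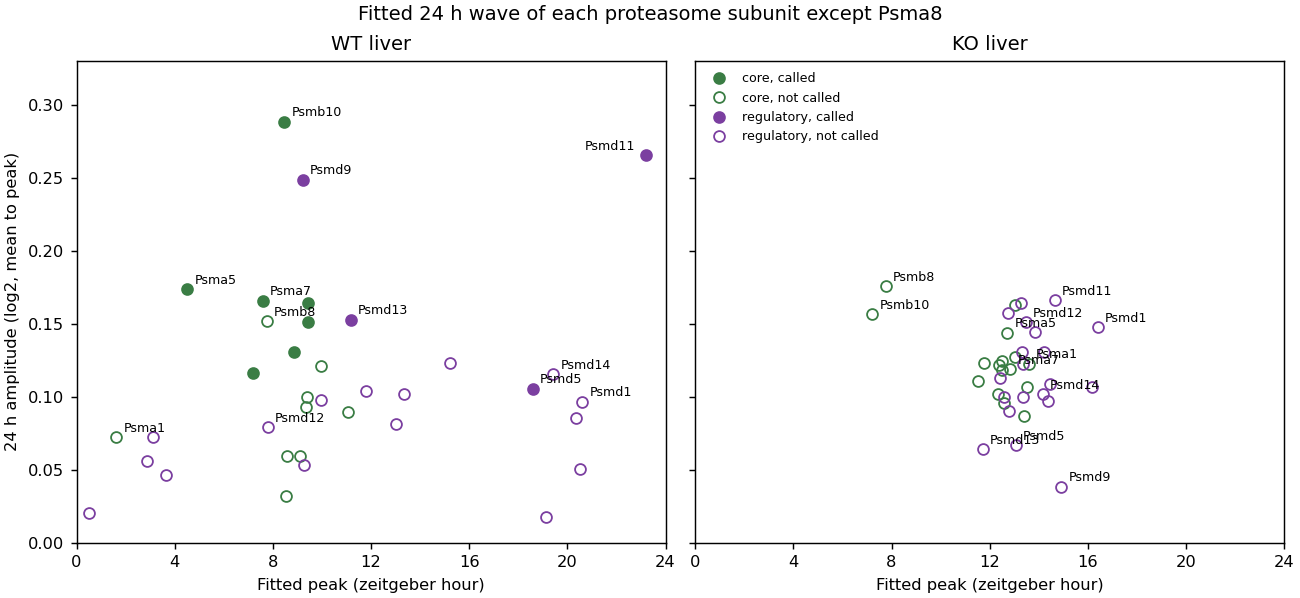
Fitted 24 h peak hour (horizontal axis, zeitgeber hours) and log2 amplitude (vertical axis) of each proteasome gene in WT and in KO mice, core and regulatory genes in separate colours, without Psma8. WT core genes lie mostly between ZT6 and ZT12 while WT regulatory genes spread over all hours, and KO genes of both particles lie mostly between ZT12 and ZT18.

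In KO liver no proteasome gene passed the test of a time effect or of a 24 h wave with edgeR. Few genes of any kind were called in KO liver (0.91% for time and 0.984% for the 24 h wave), and DESeq2 called 4 and 2 proteasome genes. Unadjusted, 24 proteasome genes had p under 0.05 for a time effect and 25 for a 24 h wave. The share of all genes at that unadjusted threshold is not given here, so these 2 counts have no background to be set against. The smallest p for a 24 h wave belonged to the lid subunit Psmd12 (amplitude 0.15, peak ZT 13.5, adjusted p = 0.0733) and to Psmc2 (0.16, ZT 13.3, adjusted p = 0.0755). No 12 h wave was called in KO in any gene with edgeR, and 3 proteasome genes had an unadjusted p under 0.05. The median fitted amplitudes were 0.123 over the core and 0.111 over the regulatory genes, beside 0.121 and 0.0909 in WT and 0.114 over all genes in KO. The KO peak hours came together, with 12 of 17 core genes and 19 of 20 regulatory genes between ZT12 and ZT18. The circular means were ZT 12.1 (concentration 0.789) for the core and ZT 13.8 (0.955) for the regulatory particle. Without KO mice 20 and 21 the median KO amplitude of the core genes was 0.063 and the concentrations were 0.648 for the core and 0.864 for the regulatory genes.

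Averaged over the 6 times, KO and WT livers differed little in proteasome transcripts. Of the 37 genes 1 was called, against 8.86% of all genes tested (4.94% higher in KO); 21 had a positive and 16 a negative mean difference, with a median of 0.01 (17 positive and 20 negative with total-count scaling). The one called was Psmd10, the chaperone also known as gankyrin (ENSMUSG00000031429, mm9 chrX:137482968-137491267), higher in KO by 0.10 ± 0.0322 log2 units (SE, adjusted p = 0.0471). Its 24 WT values ran from 11.1 to 15.4 CPM and its 24 KO values from 12.5 to 17.5 CPM, so the genotypes overlapped widely. The call ended under 6 of 9 other settings (adjusted p between 0.0379 and 0.161 over the 9) and without 1 mouse in 30 of 48 cases. Without KO mice 20 and 21 its adjusted p was 0.0947. In that fit Psmd3, a lid subunit, and Psmd9 were called lower in KO instead, each by -0.12 (adjusted p = 0.0492 and 0.0447). Psma1 and Psmd1 had mean differences with adjusted p = 0.953 and 0.773.

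The genotype difference of single genes depended on the time of day. At ZT12, 13 of the 37 genes were higher in KO (35.1%, against 11.7% of all genes called either way and 6.59% called higher), 5 of the core and 8 of the regulatory particle, and none was lower. At ZT4, 3 were lower in KO (8.11%, against 3.79% either way and 1.89% lower) and none was higher. At ZT8, 1 was lower (7.87% of all genes called, 4.08% lower). None was called with edgeR at ZT0 (1.68% of all genes), ZT16 (5.37%) or ZT20 (1.05%), where 4, 1 and 2 genes had an unadjusted p under 0.05 and DESeq2 called 0 at each of these times. Over all 37 genes the median difference was 0.20 at ZT12, with 34 genes positive, and -0.17 at ZT4, with 34 negative; core and regulatory medians were alike at both times (0.20 and 0.20; -0.17 and -0.17). The median over all genes tested was 0.01 at ZT12. With libraries scaled by total counts, which moved the median over all genes at ZT0 from -0.01 to -0.10, 33 of the 37 genes were positive at ZT12 and 32 negative at ZT4.

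**Figure D4:**
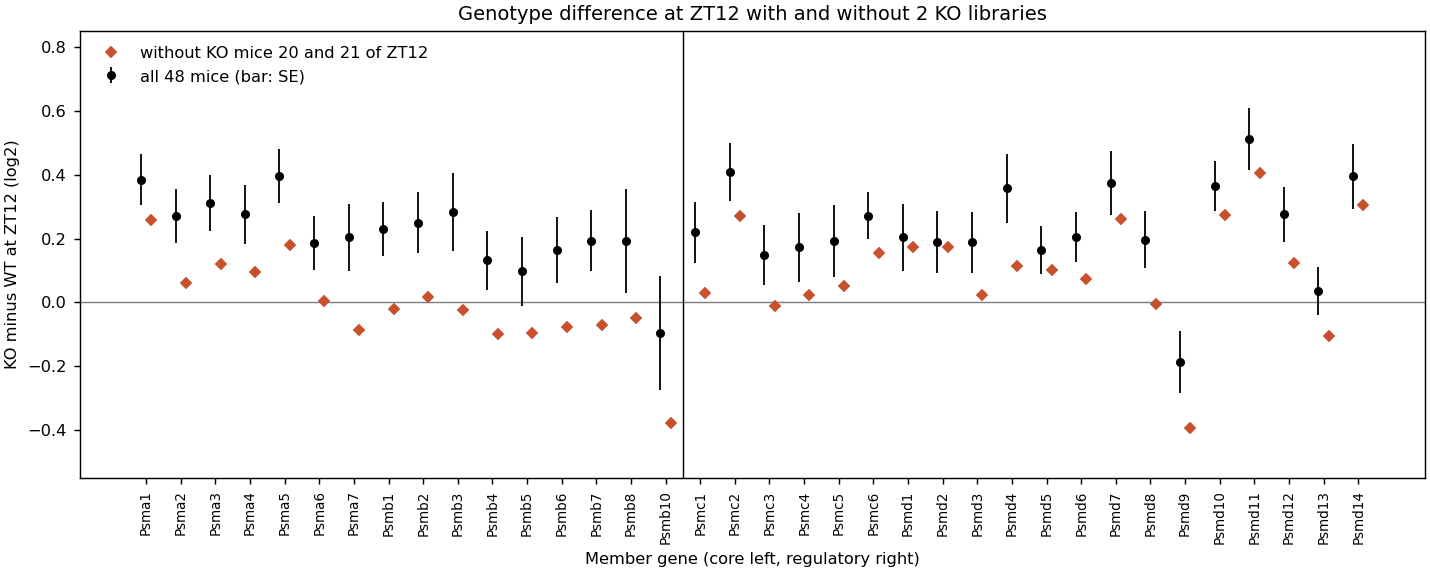
Log2 difference KO minus WT at ZT12 for each proteasome gene except Psma8, in all mice and without KO mice 20 and 21. With all mice 34 of 37 genes are above 0 and the median is 0.20. Without those 2 mice 24 are above 0 and the median is 0.05. Psma8 is counted in these values though not drawn (-0.31 with all mice, 0.14 without those 2).

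Psmd11 differed most at ZT12. Its KO values there were 125, 163, 114 and 117 CPM, all above the 4 WT values of 89.6 to 93.1 CPM (log2 difference 0.51 ± 0.0985 SE, adjusted p = 0.000491). At ZT4 the order turned: KO mice held 110, 106, 102 and 97 CPM and WT mice 132 to 143 CPM (-0.39 ± 0.0983, adjusted p = 0.0184). The groups did not overlap at either time. Among the alpha subunits, Psma5 held 67, 76.2, 96.6 and 64.9 CPM in KO mice of ZT12, above all WT mice of that time (51.9 to 61.1 CPM; 0.40 ± 0.0853, adjusted p = 0.00171). At ZT4 it held 60.9, 62.5, 56.1 and 55.4 CPM in KO, below all WT mice (72.7 to 82.7 CPM; -0.40 ± 0.0852, adjusted p = 0.00578). Psma1 (ENSMUSG00000030751, mm9 chr7:121408120-121419632) followed the same order, with 113, 128, 128 and 106 CPM in KO and 89.1, 91.7, 99.4 and 83.1 CPM in WT at ZT12 (0.38 ± 0.0793, adjusted p = 0.00109). At ZT4 it had 96.1, 109, 96.8 and 94.1 CPM in KO and 116, 119, 123 and 124 CPM in WT (-0.28 ± 0.0792, adjusted p = 0.0359). These 3 genes, 1 of the lid and 2 of the alpha ring, were lower in KO at ZT4 and higher at ZT12. The ZT4 call of Psma1 ended under 7 of 57 other settings, namely without a count filter and without WT mouse 3, 4 or 8 or KO mouse 1, 6 or 7, and that of Psmd11 without WT mouse 3 or KO mouse 7.

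**Figure D5:**
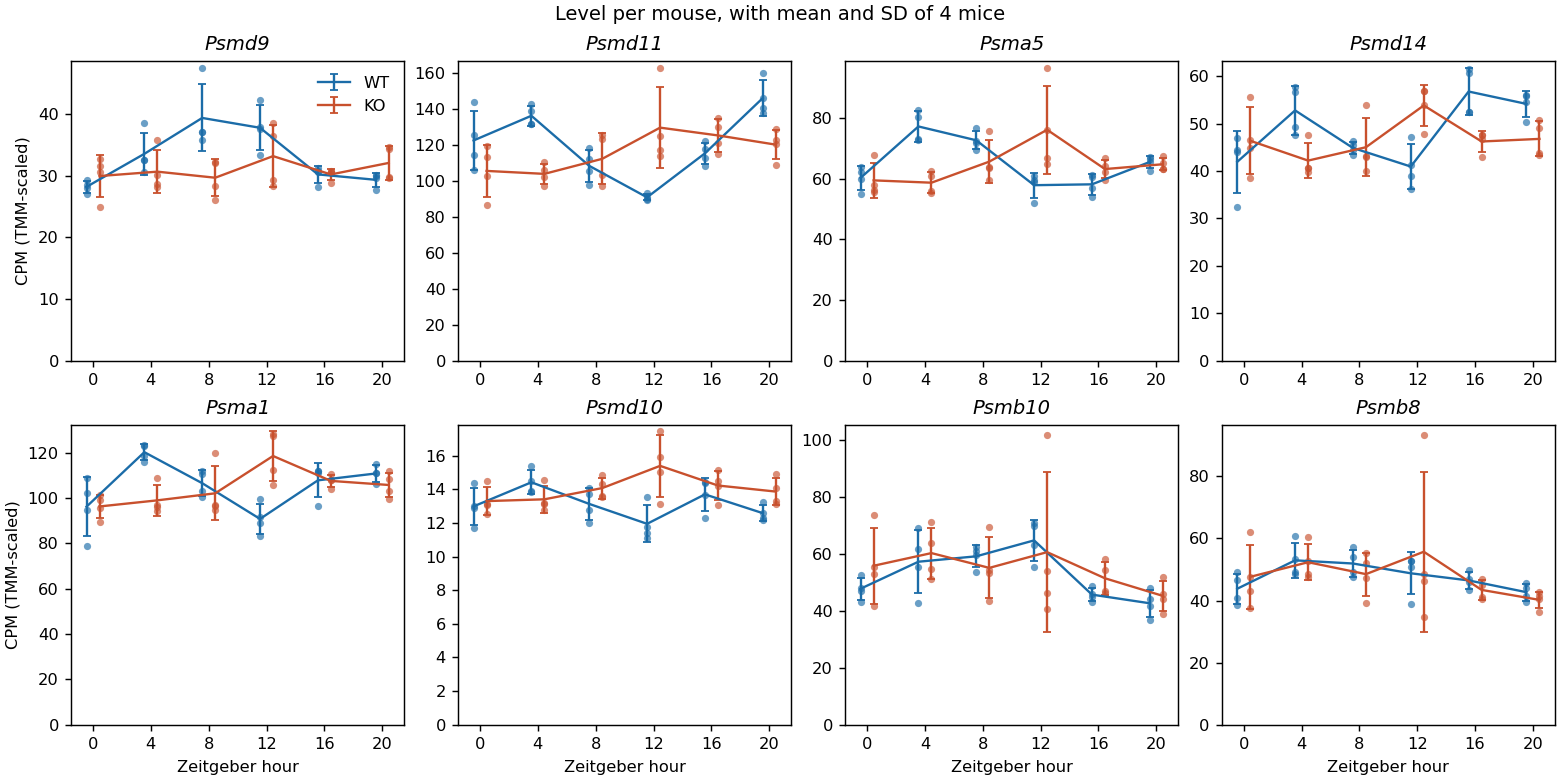
CPM of Psmd9, Psmd11, Psma5, Psmd14, Psma1, Psmd10, Psmb10 and Psmb8 in each mouse at the 6 times, WT and KO in separate colours, with lines through the group means. Psmd11, Psma5 and Psma1 show KO below WT at ZT4 and above it at ZT12, and in Psmb10 and Psmb8 KO mouse 21 stands alone at ZT12, at 102 and 93.3 CPM.

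The other genes higher in KO at ZT12 were spread over the roles of the regulatory particle and the alpha ring. Psmd10 held 15.9, 15, 17.5 and 13.1 CPM in KO and 11.1, 11.7, 13.6 and 11.4 CPM in WT (0.37 ± 0.0791, adjusted p = 0.00176); its lowest KO value lay below its highest WT value. The ATPases Psmc2 and Psmc6 differed by 0.41 and 0.27 (adjusted p = 0.00225 and 0.0132). Psmd14 and Psmd7, the partners of the deubiquitinating pair, differed by 0.39 and 0.37 (0.00932 and 0.0124), the ubiquitin receptor Psmd4 by 0.36 (0.0254) and Psmd12 by 0.28 (0.0284). The alpha subunits Psma3, Psma4 and Psma2 differed by 0.31, 0.28 and 0.27 (adjusted p = 0.0174, 0.0422 and 0.031). The call of Psma4 ended under 33 of 57 other settings. No beta subunit was called: Psmb5, Psmb6 and Psmb7 had differences of 0.10, 0.16 and 0.19 (adjusted p = 0.602, 0.311 and 0.187). The beta subunits Psmb1, Psmb2 and Psmb3 had differences of 0.23, 0.25 and 0.28 (adjusted p = 0.0686, 0.0828 and 0.128), close to those of the called Psma2 and Psma4, and a difference between alpha and beta subunits was not tested. Without KO mice 20 and 21 the values of Psmb1, Psmb2 and Psmb3 were -0.02, 0.02 and -0.02. Those of Psma2 and Psma4 were then 0.06 and 0.10. At ZT8 the gene called was Psmd9, with 26, 28.4, 32.1 and 32.3 CPM in KO, all below the WT values of 35.7 to 47.5 CPM (-0.41 ± 0.0981, adjusted p = 0.00689). That call ended without WT mouse 16, the one at 47.5 CPM.

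Much of the ZT12 count rested on KO mice 20 and 21. Without them 2 genes were called at ZT12, against 4.89% of all genes: Psmd11 remained higher in KO (0.41, adjusted p = 0.018), and Psmd9 was lower (-0.40, adjusted p = 0.0299). The median over the 37 genes was then 0.05, with -0.02 over the core and 0.11 over the regulatory genes. Only 2 KO mice were left at that time. The ZT4 contrast uses neither mouse and its median stayed at -0.17; with the spread estimated over the remaining 46 mice, 6 genes were called lower at ZT4, Psma1, Psma5, Psma6, Psmd11, Psmd3 and Psmd4. Without KO mouse 21 and WT mouse 48, 7 genes were called at ZT12, against 7.99% of all genes, with a median of 0.15. With 1 mouse left out at a time, 6 to 18 genes were called at ZT12: 6 without WT mouse 23, 7 without WT mouse 17 or KO mouse 21, and 18 without KO mouse 24. Both left-out sets were chosen after the data had been seen. The shares of all genes are not given here for the reduced fits at ZT4 or with 1 mouse left out.

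The contrast within each cage set is the mean of the contrasts at its 2 times, from the same mice, so it restates the values above and adds no separate evidence. KO mice 20 and 21 belong to the set of ZT12 and ZT16, whose values without them are not given here. In the set that held ZT4 and ZT8, 4 genes were lower in KO (Psma5, Psmd9, Psmd3 and Psma1; 14.5% of all genes were called, 7.14% lower) with a median of -0.13 over the 37 genes. In the set of ZT12 and ZT16, 5 were higher (Psmd11, Psma5, Psmd10, Psma1 and Psma2; 10.8% called, 6.01% higher) with a median of 0.09. In the set of ZT20 and ZT0, 1 was lower (Psmd11, -0.25, adjusted p = 0.027; 5.47% called, 2.18% lower), with a median of 0.06. Counted in either direction, the shares of the 37 genes called were 10.8%, 13.5% and 2.7%, which is above the share of all genes in the set of ZT12 and ZT16 and below it in the other two.

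The change of the genotype difference with time was tested directly. The interaction was called in 12 of the 37 genes (32.4%, against 20.7% of all genes), 3 of the core and 9 of the regulatory particle. The smallest adjusted p belonged to Psmd11 (4.94e-05), Psma5 (0.000173), Psmd14 (0.00093), Psma1 (0.00105), Psmc2 (0.00678) and Psmc6 (0.0161). Without KO mice 20 and 21 the interaction was called in 8 genes, not all of them among the 12. The calls of Psmc2, Psmc6, Psmd7, Psmd10 and Psmd12 ended in that fit, and the outcome for Psma3 and Psmd4, also among the 12, is not given here. Without KO mouse 21 and WT mouse 48 the interaction was called in 7 genes, and in 7 without WT mouse 23 alone. The shares of all genes with a called interaction in these reduced fits are not given here. The 24 h waves of WT and KO differed in 5 genes (13.5%, against 22.8% of all genes), a share below that of all genes, and in 12 with total-count scaling or without KO mouse 21 and WT mouse 48. The 5 were Psmd11 (adjusted p = 8.16e-05), Psma5 (0.00167), Psmd9 (0.00349), Psma1 (0.0322) and Psmd7 (0.0342). The calls of Psma1 and Psmd7 ended under 11 and 19 of 57 other settings, in both cases also without KO mice 20 and 21. For Psmd9 the fitted amplitude was 0.25 in WT and 0.04 in KO. For Psmd11 the KO amplitude was 0.17, with the fitted peak at ZT 14.7 against ZT 23.2 in WT. For Psma5 the KO amplitude was 0.14 with the peak at ZT 12.7, against ZT 4.51 in WT. The 12 h waves differed in 1 gene (0.148% of all genes), Psmd14 (amplitude 0.23 in WT and 0.11 in KO, adjusted p = 0.022), and this call ended without KO mice 20 and 21.

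The immunoproteasome genes were not called between genotypes, and KO mouse 21 had the highest value of both. Psmb8 (ENSMUSG00000024338, mm9 chr17:34334666-34338399) held 46.2, 34.8, 93.3 and 48.5 CPM in KO mice of ZT12 and 52.8, 52.8, 50.7 and 38.8 CPM in WT mice (0.19 ± 0.164, adjusted p = 0.477). Psmb10 held 53.9, 40.5, 102 and 46.2 CPM in the same KO mice, against 55.3 to 70.8 CPM in WT (-0.10 ± 0.179, adjusted p = 0.779). Without KO mice 20 and 21 the differences at ZT12 were -0.05 for Psmb8 and -0.38 for Psmb10, and neither was called. The values of 93.3 and 102 CPM belonged to KO mouse 21, whose leukocyte markers summed to 1052 CPM; the WT mice of ZT12 had sums of 328 to 557 CPM. None of the 9 leukocyte markers was called between genotypes with edgeR or DESeq2, either averaged over times (1 at unadjusted p under 0.05) or at ZT12 (4 at unadjusted p under 0.05, median log2 difference 0.42), and their part in the levels of Psmb8 and Psmb10 was not tested. Averaged over times, Psmb8 and Psmb10 had adjusted p = 0.989 and 0.674.

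Genes that work with the proteasome were taken from lists chosen with earlier results of these data known. All list values at ZT12 include KO mice 20 and 21, without which 4.89% of all genes were called at that time. Of the 5 measured assembly factors of the core, Psmg1 was higher in KO on average (0.11, adjusted p = 0.0375), and Pomp (0.36, adjusted p = 0.00876) and Psmg2 (0.35, 0.0212) were higher at ZT12; these last 2 also had a called interaction (11.7% of all genes were called at ZT12 and 20.7% for the interaction). None of the 5 activators and inhibitors of the core was called between genotypes with edgeR or DESeq2 on average (2 at unadjusted p under 0.05) or at ZT12 (1). Among them Psme1, an interferon-inducible activator, and Psme3 had called 24 h waves in WT (peaks ZT 8.68 and ZT 14.8), and the wave of Psme3 differed between genotypes (adjusted p = 0.0248). Of 8 further proteins bound to the regulatory particle, Shfm1, a small lid subunit, was higher in KO at ZT12 (0.30, adjusted p = 0.0403), and 4 had a called interaction (against 20.7% of all genes), Zfand5, AI314180, Txnl1 and Shfm1. Of 8 regulators around NRF1 and NRF2, Nfe2l1 itself (-0.11, adjusted p = 0.0412) and its partner Mafg (-0.15, adjusted p = 0.0117) were lower in KO on average, and Mafg was lower at ZT12 (-0.49, adjusted p = 0.000513), where 13 proteasome genes were higher. In WT 6 of these 8 had called 24 h waves, against 48.1% of all genes, among them Nfe2l1 (amplitude 0.12, peak ZT 19.8) and Mafg (0.28, ZT 9.25).

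Of 6 genes for ubiquitin and its activating enzymes, Rps27a, which encodes ubiquitin fused to a ribosomal protein, was higher in KO on average (0.17, adjusted p = 0.0233), and 3 had called 24 h waves in WT, near the 48.1% of all genes, Rps27a, Uba6 and Ubb. Of 10 shuttles of ubiquitinated proteins and VCP partners, 2 were higher at ZT12, Ubqln1 (0.31, adjusted p = 0.0314) and the VCP cofactor Nsfl1c (11.7% of all genes were called there), and 5 had called WT waves, again near the share of all genes. Of 15 genes of interferon response and antigen presentation, 13 were not called at ZT12; Tap1, which encodes a subunit of the transporter that carries peptides to MHC class I, was higher in KO there (0.50, adjusted p = 0.0198). Of the heat shock genes, all 11 had called 24 h waves in WT, 8 had called 12 h waves and 10 a called interaction (against 48.1%, 5.48% and 20.7% of all genes). Among them, the chaperones Hspa8 (amplitude 0.62, peak ZT 13.5) and Hsph1 (1.07, ZT 15.9) were higher in KO on average by 0.36 and 0.34 (adjusted p = 0.00317 and 0.0422), while Hspa1a and Hspa1b were lower at ZT12. Of the 11, 4 were called higher in KO at ZT4 and 3 at ZT8, and 5 lower at ZT16 (list medians 0.63, 0.32 and -0.43). Of all genes, 3.79%, 7.87% and 5.37% were called either way at these times, 11.7% at ZT12 and 8.86% on average. No p-value was computed for any list as a whole. Reads that match processed copies of proteasome genes elsewhere in the genome may have been counted or dropped, which the sources used here do not say, so single levels are uncertain to that extent.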

How the data were processed

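Poly-A RNA from 48 livers, 1 library per mouse, was sequenced from a kit that does not record strand, after 13 PCR cycles per the labels' protocols. Per the submitters' processing notes, the authors called bases with CASAVA and aligned reads to mouse build mm9 with STAR 2.4.0f1; the counting tool, gene models and handling of multiply matching reads are not given in the sources used here. The deposited values are whole-number read counts per gene, whose totals are nearly equal in all libraries (33562272 to 34035644), by a step that is not given. The replicates are separate mice, and the largest correlation between libraries was 0.992, with 0 identical pairs. Counts were tested in R 4.3.3 with edgeR 4.0.16 (quasi-likelihood F tests, TMM factors of 0.898 to 1.14, filterByExpr with a minimum count of 10), which left 14836 genes and 99.975% of counts. The models had a mean per group (36 residual degrees of freedom), a 24 h wave per genotype (42), or 24 h and 12 h waves per genotype (38). P-values were adjusted by Benjamini-Hochberg over all 14836 genes, and a gene with an adjusted p under 0.05 was called. Levels are CPM with TMM scaling, log2 CPM has a prior count of 2, and SE values of genotype differences come from the F statistics. Those of wave amplitudes and peak hours come from the fitted covariance by the delta method. Lengths are medians over basic protein-coding transcripts of the GENCODE annotation of the reference, which is of another build than the counts and was used for lengths only. Alternatives were other scalings, no filter, DESeq2 1.42.0, body weight as a covariate, cage as a random block (limma 3.58.1), and fits without single mice or far libraries; the 12 h wave and the fits without KO mice 20 and 21, or without KO mouse 21 and WT mouse 48, were added after the data had been seen. The scripts were tested on simulated data.

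Proteasome genes and all lists were chosen with earlier results of these data known. Genes named are Psma1, Psmd1, Psmb5 to Psmb10; up to 6 called genes of smallest p for the average difference, the interaction and the rhythm difference; up to 8 called genes of largest amplitude in each genotype, or 2 of smallest p where none was called; the 3 highest and 3 lowest in CPM; and up to 4 genes per list. Genes called at single times, those with 12 h waves and other per-length levels were named after their values were seen. In 11 of the 19 shared cages WT and KO mice lived together, and limma's correlation between mice of a cage was 0.0806 in the model with a mean per group.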

Additional observations from a re-analysis of the deposited data

Results flagged for a closer look

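In 7 of 120 sets of 4 mice examined (8 proteasome genes and the particle means, by group), the highest or lowest mouse stood farther from the rest than Dixon's 95% limit allows, by the gap to the nearest mouse as a share of the range; chance alone gives about 1 set in 20. Psmd9 was at 47.5 CPM in WT mouse 16 of ZT8 (others 35.7 to 37.2) and at 28.8 CPM in KO mouse 30 of ZT16 (others 30.6 to 30.8). Psmd14 was at 47.7 CPM in KO mouse 5 of ZT4 (others 39.7 to 40.7). Psma1 was at 120 CPM in KO mouse 15 of ZT8 (others 94.8 to 97.1) and at 96.6 CPM in WT mouse 32 of ZT16 (others 111 to 112). Psmb8 was at 38.8 CPM in WT mouse 23 of ZT12 (others 50.7 to 52.8). The mean over core genes (without Psma8) was -0.0438 log2 units in KO mouse 31 of ZT16 (others -0.0129 to -0.00915).

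The KO minus WT difference changed with time (interaction in edgeR, adjusted over all genes) in 12 genes. The adjusted p was 4.94e-05 for Psmd11, 0.000173 for Psma5, 0.00093 for Psmd14, 0.00105 for Psma1, 0.00678 for Psmc2 and 0.0161 for Psmc6. It was 0.025 for Psmd4, 0.0262 for Psmd9, 0.0326 for Psmd12, 0.0342 for Psmd10, 0.0383 for Psma3 and 0.0431 for Psmd7. The interaction calls of Psmd7, Psmd10 and Psmd12 ended under 39, 15 and 11 of 57 other settings. The 24 h wave differed between genotypes in Psmd11 (8.16e-05), Psma5 (0.00167), Psmd9 (0.00349), Psma1 (0.0322) and Psmd7 (0.0342), and the 12 h wave in Psmd14 (0.022). What these differences come from was not tested.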

How the results depend on the processing

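No called difference of a named gene changed sign under any alternative. Over the single-gene results, 10558 values stayed on their side of the threshold, 296 lost the call and 90 gained one. Differences called in neither fit could change sign, as did Psma7 at ZT12 (0.20 in all mice, -0.09 without KO mice 20 and 21). Tests of interactions and waves have no sign. The counts below are of called genes among the 37, and where the values moved the cause was not tested, except that fits without mice have fewer of them. Shares of all genes under these alternatives are given only for the reduced sets at ZT12. Averaged over times, 0 genes were called without a count filter, 0 with body weight in the model, 2 without KO mice 20, 21, 43 and 44, 2 without KO mice 20 and 21, and 0 without KO mouse 21 and WT mouse 48, against 1. At ZT4 the count was 5 with DESeq2, 7 without the 4 far libraries, 6 without KO mice 20 and 21, and 5 without KO mouse 21 and WT mouse 48, against 3. At ZT12 it was 2, 2 and 7 in the same 3 reduced sets, against 13 (5.52%, 4.89% and 7.99% of all genes, against 11.7%). At ZT16 it was 1 without KO mouse 21 and WT mouse 48, against 0. The interaction was called in 5 genes without the 4 far libraries and in 7 without KO mouse 21 and WT mouse 48, against 12. A time effect in KO was called in 4 genes with DESeq2, against 0. A 24 h wave in WT was called in 18 genes with total-count scaling, against 11, and the test of any time effect, used in its place, called 21, which is another test and the count already given for it; in KO DESeq2 called a wave in 2, against 0. The 24 h waves differed in 12 genes with total-count scaling, 3 without a filter and 12 without KO mouse 21 and WT mouse 48, against 5. The 12 h wave in WT was called in 4 genes with total-count scaling, 4 without a filter, 11 with DESeq2, 11 without the 4 far libraries and 11 without KO mice 20 and 21, against 7; it differed between genotypes in 5 with DESeq2, and in 0 without the 4 far libraries or without KO mice 20 and 21, against 1. With total-count scaling the mean peak hour of the core was ZT 6.49 in WT (against ZT 8.66) and ZT 10.4 in KO (against ZT 12.1), and that of the regulatory particle in KO was ZT 12.2 (against ZT 13.8), with a concentration of 0.829 (against 0.955). Without the 4 far libraries the median KO amplitude of the core was 0.0653 and the regulatory concentration 0.890. Without KO mice 20 and 21 these were 0.063 and 0.864, and the core concentration in KO was 0.648 (against 0.789).

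With 1 mouse left out at a time, the counts ran from 0 to 1 for the average (0 in 30 of 48 cases), 1 (without WT mouse 3 or KO mouse 7) to 5 (without WT mouse 48 or KO mouse 5) at ZT4, and 0 (without WT mouse 16) to 1 at ZT8. At ZT12 they ran from 6 (without WT mouse 23) to 18 (without KO mouse 24), and for the interaction from 7 to 19 for the same mice. They ran from 14 (without WT mouse 48) to 25 for time in WT, 0 to 14 (without KO mouse 24) for time in KO, 9 to 15 for the 24 h wave in WT, 0 to 3 (without KO mouse 44) in KO and 3 (lowest without WT mouse 17) to 11 (without WT mouse 48) for their difference. For the 12 h wave in WT they ran from 3 (without WT mouse 45) to 11 (without KO mouse 21), and for its difference from 1 to 2 (without KO mouse 41). No analysis paired by mouse number was possible, because the numbers are unique and no groups share any. Cage does tie mice: 11 cages held a WT and a KO mouse of the same time, and with cage as a random block, the fit that used this tie, no count above moved by over 1.5 times. A fit of these 11 pairs alone was not made. Depth limits the values of Psma8, at 14 to 96 counts per library, more than those of the other 36 genes. The 24 h and 12 h waves rest on 1 cycle of 6 times.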
